A study of Mus musculus with 6 samples.

Results

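Ion channels and calcium pumps set the membrane potential and the calcium level of a smooth muscle cell. The table of gene counts of cultured mouse aortic smooth muscle cells (MASMCs) held 183 such genes among its 41721 rows. They were taken by name as the protein-coding rows whose symbols mark potassium channels and their partners (Kcn), voltage-gated calcium channels (Cacn), TRP channels (Trpc, Trpm, Trpv), ryanodine and IP3 receptors (Ryr, Itpr), calcium pumps (Atp2a, Atp2b, Atp2c), the store-operated pair of Orai and Stim genes, Piezo channels, anoctamins (Ano) and voltage-gated sodium channels (Scn). No measured value entered this choice, although it was made with earlier results of these data known. The name pattern for TRP channels also took in Trpc4ap, an adaptor protein and not a channel.

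The cells came from the abdominal aortas of Pdk4fl/fl and Pdk4SMKO mice, with 3 libraries per genotype. The samples of both genotypes are labelled as Ang II treated, and the study's methods give 1 μM for 48 h. Pdk4fl/fl mice carry loxP sites around exons 4 to 6 of Pdk4, the kinase that inhibits the pyruvate dehydrogenase complex. Pdk4SMKO mice carry the same floxed allele with Myh11-creERT2, a tamoxifen-dependent Cre that is active in smooth muscle, and both genotypes received tamoxifen, so that Ang II, tamoxifen and the floxed allele are shared by all 6 libraries. The cells were isolated at 10 weeks of age and used at passages 4 to 8, and no control without Ang II was analysed here. The comparison asks how the channel genes differ between the genotypes under Ang II. The study calls the libraries of a genotype biological replicates, but nothing says how many mice or isolations stand behind them, and the p values then measure the spread between these libraries, which may be technical.

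In resting smooth muscle, open potassium channels hold the membrane negative and keep voltage-gated calcium channels closed. Depolarization opens L-type calcium channels, and calcium that enters, or that IP3 and ryanodine receptors release from the sarcoplasmic reticulum, binds calmodulin and starts contraction. Pumps then return calcium to the store or move it out of the cell, STIM proteins sense an emptied store and open ORAI channels in the plasma membrane, and calcium-activated potassium and chloride channels feed back on the voltage. Cultured smooth muscle cells are known to lose much of the contractile set of channels and to use other members of the same families.

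Each library held between 16526044 and 22481670 counts, and a count of 3, taken as the floor of detection in a library, was worth 0.132 to 0.227 CPM (counts brought to equal library size with edgeR's TMM factors). Pdk4 itself had 570, 639 and 421 counts in the Pdk4fl/fl libraries and 110, 182 and 141 counts in the Pdk4SMKO libraries. Marker genes set limits on what the genotypes can be compared for. Myh11, the gene behind the Cre driver, was at 0.613 ± 0.125 CPM (SD, n = 3) in Pdk4fl/fl and 2.39 ± 0.290 CPM in Pdk4SMKO libraries, and the smooth muscle markers split, with 6 of 10 higher and 3 lower (Tagln, Cnn1 and Smtn). The summed level of 8 mesothelial markers was 74.2 to 99.99 CPM in Pdk4fl/fl and 723 to 1325 CPM in Pdk4SMKO libraries, with all 7 tested higher. That of 6 fibroblast markers was 141 to 173 and 1320 to 2774 CPM, with 3 higher and 1 lower, and the Pdk4SMKO sum was mostly Col14a1 (25.2 ± 3.01 and 1740.4 ± 609.6 CPM) and Dcn (92.7 ± 11.9 and 434 ± 165 CPM), while Dpt fell from 21.1 ± 4.43 to 10.5 ± 3.41 CPM. That of 8 macrophage markers was 22.7 to 40.1 and 62.8 to 64.1 CPM, with 6 of the 7 tested higher. Cd14 made up most of the Pdk4SMKO sum (1.65 ± 0.435 and 45.7 ± 11.7 CPM), Cd68 most of the Pdk4fl/fl sum and was lower (31.2 ± 8.78 and 4.29 ± 2.18 CPM), and Adgre1, C1qa, C1qb and Tyrobp were at 0 in every Pdk4fl/fl library. Of the 7 neuronal markers with a row, 4 were tested, with 3 called lower and none higher. The sum of the 7 was 143 to 155 and 42.6 to 51.4 CPM, with Rbfox3 at 0 in every library. Endothelial markers summed to 16.0 to 24.9 and 3.23 to 6.72 CPM with Cldn5 at 0 throughout, striated muscle markers to 6.21 to 8.07 and 1.79 to 4.04 CPM with Myh6 and Myog at 0 throughout, and Schwann cell markers to 16.0 to 22.2 and 37.1 to 39.2 CPM. The study's methods give only male mice, but Xist, which is read from an inactive X chromosome, had 3 to 5 counts in the Pdk4fl/fl libraries and 321 to 610 counts in the Pdk4SMKO libraries. The part of these differences in the results was not tested, and a difference between the genotypes cannot be told apart from one between the cell isolations.

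The 183 genes together took 0.198 to 0.258% of all counts in the Pdk4fl/fl libraries and 0.395 to 0.411% in the Pdk4SMKO libraries. After TMM scaling their summed level was 2876 ± 302 CPM (SD, n = 3) and 3271 ± 120 CPM. More of them were detected in Pdk4SMKO libraries, where 107 to 128 had at least 1 count, than in Pdk4fl/fl libraries, where 86 to 100 did, and these ranges did not overlap. Over all rows of the table the same held, with 17103 to 17784 genes counted in Pdk4fl/fl and 19102 to 20088 in Pdk4SMKO libraries. Of the 183 genes, 72 passed edgeR's filter on low counts and were tested. At an adjusted p under 0.05 (edgeR's quasi-likelihood test, Benjamini-Hochberg over all 14085 genes tested) and a fold change of at least 2, 37 were higher and 18 lower in Pdk4SMKO cells, and 17 were not called. The share called has to be read against a table in which most genes differed, since 59.3% of all genes tested were called, 32.8% higher and 26.5% lower. The groups of libraries did not overlap for 59 of the 72 genes, against 81.8% of all genes tested. The median log2 fold change was 1.07 over the 72 genes and 0.12 over all genes tested. Setting the 2 tested genes at 0 in every Pdk4fl/fl library to the bound that the floor allows left the first median unchanged. It could not have moved, since both bounds lie above it, so this says nothing on how firm the median is. The median was 0.53 over the 42 members with at least 10 counts in every library, against 0.04 over all genes under that filter, and 1.67 against 0.72 with scaling by library size alone. Members counted almost only in Pdk4SMKO libraries, such as Kcne4, Scn7a, Kcnma1 and Kcnj2, passed the filter through that genotype. Kcng3, Trpc5, Kcna4, Ryr1 and Kcnip1, counted almost only in Pdk4fl/fl libraries, likewise passed it through Pdk4fl/fl. Each library left out in turn gave 18 to 20 lower and 37 to 41 higher members.

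**Figure D1:**
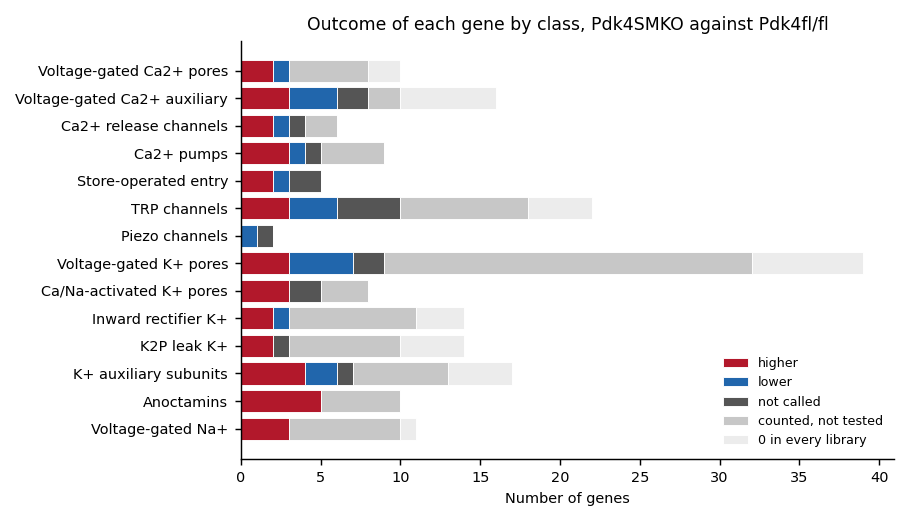
Number of genes in each of 14 channel classes (horizontal axis), divided into those called higher in Pdk4SMKO (red), called lower (blue), tested and not called (dark grey), counted in some library but under the filter (light grey) and at 0 in every library (palest). Anoctamins and sodium channels hold no lower gene, while the voltage-gated potassium pores hold 4 lower and 3 higher among 39.

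The classes did not move as blocks. All 5 tested anoctamins and all 3 tested sodium channel genes were higher, and both called K2P leak channels and all 3 called calcium-activated potassium channel genes were higher as well. Voltage-gated calcium channel auxiliary subunits held 3 higher and 3 lower genes, TRP channels 3 and 3, and the voltage-gated potassium pores 3 higher and 4 lower. Over all 92 potassium channel genes, 27 were tested, of which 14 were higher and 7 lower. That is 77.8% called, with 51.9% higher and 25.9% lower. Over all genes tested, 59.3% were called, 32.8% higher and 26.5% lower, and the counts of each class have to be read against these shares. Within several families a member that was abundant in Pdk4fl/fl cells fell and a relative rose, and these exchanges are described family by family.

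The genes with the largest changes are shown with the sequence ahead of their start, to set their promoters side by side. These are the 2 lower and the 2 higher genes with the largest fold changes among called members with at least 10 CPM in either genotype. Each sequence is the 250 bases upstream of the outermost start in RefSeq's GRCm38.p6 annotation, 5′ to 3′ on the gene's strand. The bases after the start were found in a GENCODE transcript of the gene for Cacnb1, Ano3 and Kcnj15. Those of Cacng7 were not, so its start is less certain. Capitals mark GGGCGG on either strand, the core of a GC box, which is bound by SP family factors.
Cacnb1, lower, chr11:98022628-98022877, minus strand: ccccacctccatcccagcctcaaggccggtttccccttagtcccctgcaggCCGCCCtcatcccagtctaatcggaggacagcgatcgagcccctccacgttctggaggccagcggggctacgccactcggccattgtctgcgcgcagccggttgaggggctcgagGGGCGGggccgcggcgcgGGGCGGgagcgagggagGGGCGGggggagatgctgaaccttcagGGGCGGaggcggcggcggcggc
Cacng7, lower, chr7:3332575-3332824, plus strand: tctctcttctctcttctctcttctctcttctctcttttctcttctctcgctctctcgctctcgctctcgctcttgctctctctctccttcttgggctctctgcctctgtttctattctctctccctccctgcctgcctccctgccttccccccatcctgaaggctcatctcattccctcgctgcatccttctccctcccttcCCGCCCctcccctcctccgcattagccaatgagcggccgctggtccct
Ano3, higher, chr2:110950245-110950494, minus strand: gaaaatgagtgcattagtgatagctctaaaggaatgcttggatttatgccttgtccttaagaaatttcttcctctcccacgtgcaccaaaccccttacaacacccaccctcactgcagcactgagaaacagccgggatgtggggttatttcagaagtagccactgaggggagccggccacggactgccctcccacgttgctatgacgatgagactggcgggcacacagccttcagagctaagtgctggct
Kcnj15, higher, chr16:95257308-95257557, plus strand: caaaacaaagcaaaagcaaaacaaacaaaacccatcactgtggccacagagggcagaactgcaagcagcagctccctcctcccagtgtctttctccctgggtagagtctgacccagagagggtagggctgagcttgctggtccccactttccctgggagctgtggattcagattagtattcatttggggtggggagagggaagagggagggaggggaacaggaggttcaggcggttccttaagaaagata
The window of Cacnb1 held GGGCGG at 5 places and that of Cacng7 at 1, while those of Ano3 and Kcnj15 held 0. This contrast did not extend to the other called members. Of the 18 lower members 14 had a window, 8 of them with GGGCGG (57.1%), and of the 37 higher members 26 had a window, 15 of them with GGGCGG (57.7%), so the shares by direction were nearly equal. Over all 27018 gene windows of that length, 33.0% held it. Those windows were not limited to genes tested here, so that share is not a matched background for the called members. The CArG box, the site of serum response factor at smooth muscle genes, and TGACTCA, a site of AP-1 factors, were searched on both strands, and neither was in the 4 windows. Over all windows, 1.41% held a CArG box and 4.43% held TGACTCA.

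**Figure D2:**
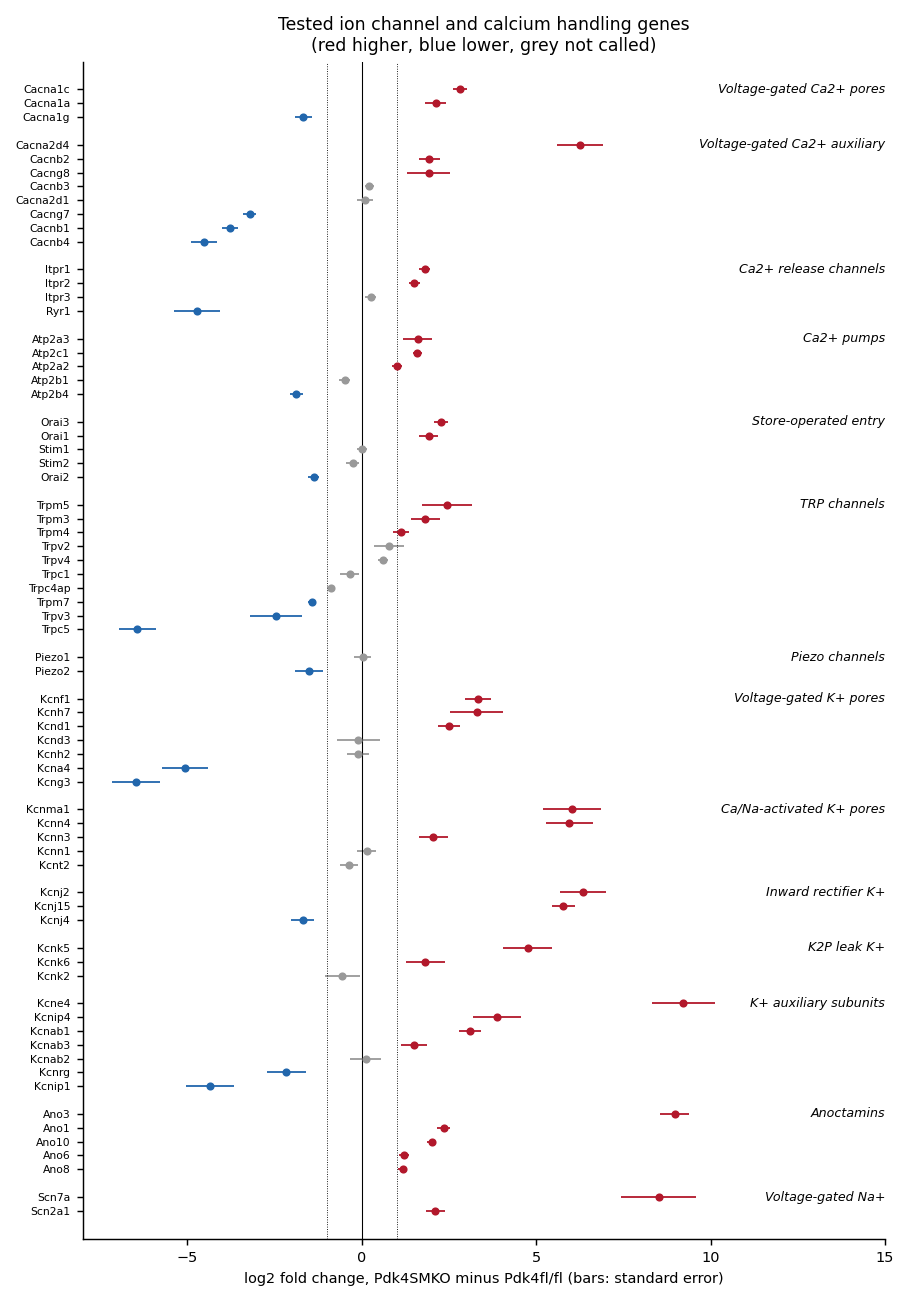
Log2 fold change of 69 of the 72 tested genes, Pdk4SMKO minus Pdk4fl/fl (horizontal axis), with its standard error as a bar, grouped by class; red points were called higher, blue lower and grey not called, and dotted lines mark a fold change of 2. Genes with 3 counts or fewer over a genotype (11 of the 72) lie far out, and their fitted position depends on the prior count of the fit.

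The pore-forming subunits of voltage-gated calcium channels changed places. Cacna1c encodes the L-type pore through which most calcium enters contractile smooth muscle (MGP_C57BL6NJ_G0031627, chromosome 6, bases 124468294 to 125101985 in the C57BL/6NJ assembly). It stood at 22.0, 22.0 and 17.3 CPM in the 3 Pdk4fl/fl libraries and at 105, 173 and 155 CPM in the 3 Pdk4SMKO libraries. Every Pdk4SMKO library lay far above every Pdk4fl/fl library, and the log2 fold change was 2.82 (standard error 0.20, edgeR adjusted p = 6.53e-07). Cacna1g encodes a T-type pore, which opens at more negative voltages and is linked to proliferating smooth muscle (MGP_C57BL6NJ_G0019349, chromosome 11, bases 99504429 to 99577228 in the C57BL/6NJ assembly). Its levels were 82.0, 88.1 and 56.0 CPM in Pdk4fl/fl and 17.4, 31.9 and 21.5 CPM in Pdk4SMKO libraries. The groups did not overlap, and the log2 fold change was -1.68 (standard error 0.24, edgeR adjusted p = 9.53e-05). Cacna1a, the P/Q-type pore of nerve terminals, was low throughout and rose from 1.70 ± 0.402 to 7.31 ± 1.67 CPM (log2 fold change 2.11). Of the other 7 pore genes none passed the filter, and Cacna1h, another T-type pore, had 0, 0 and 2 counts in Pdk4fl/fl and 16, 8 and 6 counts in Pdk4SMKO libraries. Cacna1d, the other L-type pore of vessels, had 1 count in all Pdk4fl/fl libraries together and 7 in the Pdk4SMKO libraries.

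Expressed as shares of the family's level per length of gene model, which no scaling between libraries can move, Cacna1c went from 11.3 ± 0.969% (SD, n = 3) to 68.8 ± 4.04% and Cacna1g from 86.3 ± 1.91% to 23.3 ± 2.39%. The summed level of the 10 pore genes per kilobase was 8.62 ± 1.79 CPM per kilobase in Pdk4fl/fl and 9.91 ± 2.30 in Pdk4SMKO libraries, so the exchange took place at an overlapping total. An exact two-sided permutation test gave p = 0.1 for both shares, the smallest p that 3 libraries against 3 allow. These shares were computed after the values of the members had been seen.

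The auxiliary subunits split in the same class between large falls and a stable main member. Beta subunits bring the pore to the membrane, and Cacnb3 was the most abundant of the 4 per length in both genotypes. It stood at 151, 164 and 142 CPM in Pdk4fl/fl and 150.1, 204 and 177 CPM in Pdk4SMKO libraries, overlapping, with a log2 fold change of 0.21 (standard error 0.14, edgeR adjusted p = 0.172). Cacnb1, known as the beta subunit of skeletal muscle, went from 86.9, 78.6 and 84.6 CPM to 4.79, 8.51 and 4.91 CPM. That is a log2 fold change of -3.78 (standard error 0.22, edgeR adjusted p = 1.73e-07), with all Pdk4SMKO libraries far below. Cacnb4, a mainly neuronal subunit, fell from 6.71 ± 1.32 to 0.289 ± 0.109 CPM, and Cacnb2, the main beta subunit of heart, rose from 1.11 ± 0.183 to 4.26 ± 0.521 CPM (log2 fold changes -4.52 and 1.93). The share of Cacnb1 in the family fell from 27.1 ± 2.32% to 2.26 ± 0.467%, and that of Cacnb3 was 71.7 ± 2.15% and 97.1 ± 0.463%.

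Cacng7 belongs to the gamma family, whose members of this branch also serve glutamate receptors. It had 82.1, 74.2 and 74.7 CPM in Pdk4fl/fl and 7.42, 10.6 and 6.82 CPM in Pdk4SMKO libraries, without overlap (log2 fold change -3.21, standard error 0.18, edgeR adjusted p = 1.41e-07). The only other gamma gene with counts, Cacng8, was called higher at under 1.5 CPM in every library. Cacna2d1, the alpha2delta subunit that carries pores to the surface, was not called: its Pdk4fl/fl libraries lay at 35.5, 38.7 and 43.5 CPM and its Pdk4SMKO libraries at 58.6, 31.8 and 34.8 CPM, with Pdk4SMKO replicate 1 above the other two. Cacna2d4 had 0, 0 and 2 counts against 91, 78 and 73 counts and was called higher (edgeR adjusted p = 1.02e-05). It overlaps Lrtm2, which had 1339 counts on the opposite strand, and whether the counting used strand is not given in the sources used here, so its reads may belong to either gene.

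Calcium release channels were dominated by Itpr3, a receptor for IP3, the messenger made when Ang II binds its receptor (MGP_C57BL6NJ_G0023821, chromosome 17, bases 27417370 to 27490358 in the C57BL/6NJ assembly). Itpr3 stood at 311, 304 and 209 CPM in Pdk4fl/fl and 310.5, 329 and 341 CPM in Pdk4SMKO libraries and was not called (log2 fold change 0.25, standard error 0.16, edgeR adjusted p = 0.168). Itpr1, the main form of contractile vascular muscle, had 37.1, 28.3 and 27.0 CPM and 99.6, 116 and 107 CPM. Its groups were well apart, with a log2 fold change of 1.80 (standard error 0.15, edgeR adjusted p = 1.93e-06). Itpr2 rose by a similar amount, from 12.4 ± 0.558 to 35.2 ± 6.33 CPM (log2 fold change 1.50). The share of Itpr3 among the 3 receptors per length was 92.2 ± 1.21% in Pdk4fl/fl and 81.5 ± 1.30% in Pdk4SMKO libraries, and that of Itpr1 5.15 ± 0.783% and 13.1 ± 0.640%.

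Ryanodine receptors, which open when calcium rises at their cytosolic face, were close to the floor. Ryr1, the skeletal muscle form, had 37, 28 and 20 counts in Pdk4fl/fl and 1, 3 and 0 counts in Pdk4SMKO libraries and was called lower (log2 fold change -4.72, edgeR adjusted p = 8.31e-05). Ryr2, the form known for calcium sparks in arterial muscle, had 0, 2 and 0 and 0, 1 and 0 counts and was not tested. Ryr3 had 0, 4 and 0 and 15, 2 and 2 counts, of which most were in Pdk4SMKO replicate 1. All 3 genes together reached 0.127 ± 0.0318 CPM per kilobase in Pdk4fl/fl and 0.0213 ± 0.0175 in Pdk4SMKO libraries, against 33.1 ± 6.53 and 44.6 ± 2.34 for the 3 IP3 receptors.

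**Figure D3:**
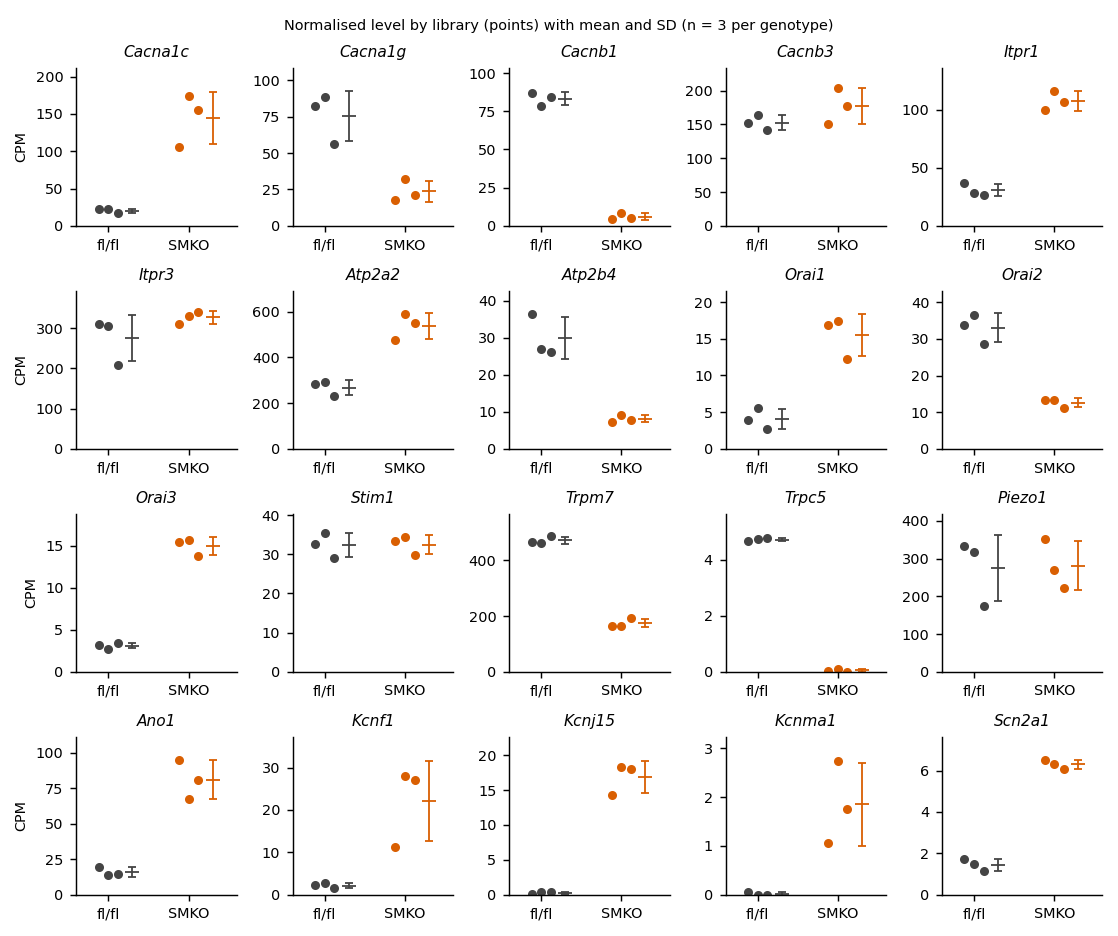
CPM (vertical axis, linear from 0) of 20 genes in each Pdk4fl/fl (grey) and Pdk4SMKO (orange) library, with the mean and SD of the 3 libraries beside the points. Cacna1c, Itpr1, Atp2a2, Orai1, Orai3 and Ano1 lie higher and Cacna1g, Cacnb1, Atp2b4, Orai2, Trpm7 and Trpc5 lower in all Pdk4SMKO libraries, while Cacnb3, Itpr3, Stim1 and Piezo1 overlap.

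Of the tested calcium pumps, Atp2a2, Atp2a3 and Atp2c1 of the store and the Golgi were higher, and of those of the plasma membrane Atp2b4 was lower and Atp2b1 was not called. Atp2a2 encodes SERCA2, the pump that refills the sarcoplasmic reticulum, and was the most abundant of the 183 genes per length in Pdk4SMKO libraries (93.6 ± 9.84 CPM per kilobase; MGP_C57BL6NJ_G0030482, chromosome 5, bases 130936258 to 130986404 in the C57BL/6NJ assembly). It stood at 281, 290.4 and 231 CPM in Pdk4fl/fl and 477, 589 and 549 CPM in Pdk4SMKO libraries. The groups did not overlap, yet its log2 fold change of 1.01 (standard error 0.14, edgeR adjusted p = 6.84e-05) sat on the limit of a fold change of 2. It was under that limit at 0.98 with RLE scaling and fell to 0.90 without Pdk4fl/fl replicate 3 and to 0.95 without Pdk4SMKO replicate 2. Atp2a2 was 99.7 ± 0.0656% of the SERCA family per length in Pdk4fl/fl and 99.6 ± 0.133% in Pdk4SMKO libraries. Atp2a3, the form of blood and endothelial cells, was called higher from 8, 11 and 5 to 47, 26 and 27 counts. Atp2a1, the fast skeletal muscle form, was not tested at 1, 5 and 2 and 3, 1 and 5 counts.

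At the plasma membrane, Atp2b1, the main extrusion pump of vascular muscle, had 261, 225 and 187 CPM in Pdk4fl/fl and 128, 172 and 177 CPM in Pdk4SMKO libraries. All Pdk4SMKO libraries were lower, but the log2 fold change of -0.50 (standard error 0.17, edgeR adjusted p = 0.018) was under the limit and turned to 0.10 with scaling by library size alone. Atp2b4, the form that binds neuronal nitric oxide synthase, went from 36.4, 27.1 and 26.0 to 7.33, 9.21 and 7.75 CPM and was called lower (log2 fold change -1.88, standard error 0.18, edgeR adjusted p = 6.05e-06). Atp2c1, which loads calcium and manganese into the Golgi, rose from 20.4 ± 0.996 to 61.5 ± 3.92 CPM (log2 fold change 1.59). Atp2c2, its relative, was not tested at 5, 1 and 0 and 2, 0 and 3 counts.

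In store-operated entry the pore genes changed and the sensor genes were not called. Stim1 stood at 32.7, 35.3 and 29.1 CPM in Pdk4fl/fl and 33.3, 34.3 and 29.7 CPM in Pdk4SMKO libraries, and its log2 fold change was 0.0036 with a standard error of 0.13 (edgeR adjusted p = 0.982). Stim2 was at 42.1, 42.3 and 26.6 CPM and 34.2, 29.9 and 28.2 CPM, overlapping (log2 fold change -0.27, edgeR adjusted p = 0.208). Of the 3 pore genes, Orai2 fell and the other two rose.

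Orai1 encodes the classical pore of store-operated entry (MGP_C57BL6NJ_G0030490, chromosome 5, bases 131579004 to 131595806 in the C57BL/6NJ assembly). It had 3.93, 5.55 and 2.72 CPM in Pdk4fl/fl and 16.8, 17.4 and 12.2 CPM in Pdk4SMKO libraries, a log2 fold change of 1.91 (standard error 0.27, edgeR adjusted p = 8.45e-05). Orai3, a pore found in mammals alone, had 3.20, 2.75 and 3.41 and 15.5, 15.7 and 13.8 CPM, a log2 fold change of 2.27 (standard error 0.19, edgeR adjusted p = 2.14e-06). Orai2, which is known to dampen the current when it joins the same hexamer, had 33.9, 36.5 and 28.7 and 13.4, 13.3 and 11.2 CPM, a log2 fold change of -1.39 (standard error 0.16, edgeR adjusted p = 1.62e-05). None of the 3 genes had overlapping groups. Per length, Orai2 held 62.8 ± 0.798% of the family in Pdk4fl/fl and 13.2 ± 0.381% in Pdk4SMKO libraries, Orai1 20.1 ± 4.56% and 42.4 ± 2.84%, and Orai3 17.1 ± 4.00% and 44.4 ± 2.51%. The family total was 8.66 ± 1.11 CPM per kilobase in Pdk4fl/fl and 15.8 ± 1.94 in Pdk4SMKO libraries. The call of Orai2 was lost with scaling by library size alone, where its log2 fold change was -0.78, while its share does not depend on that choice.

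**Figure D4:**
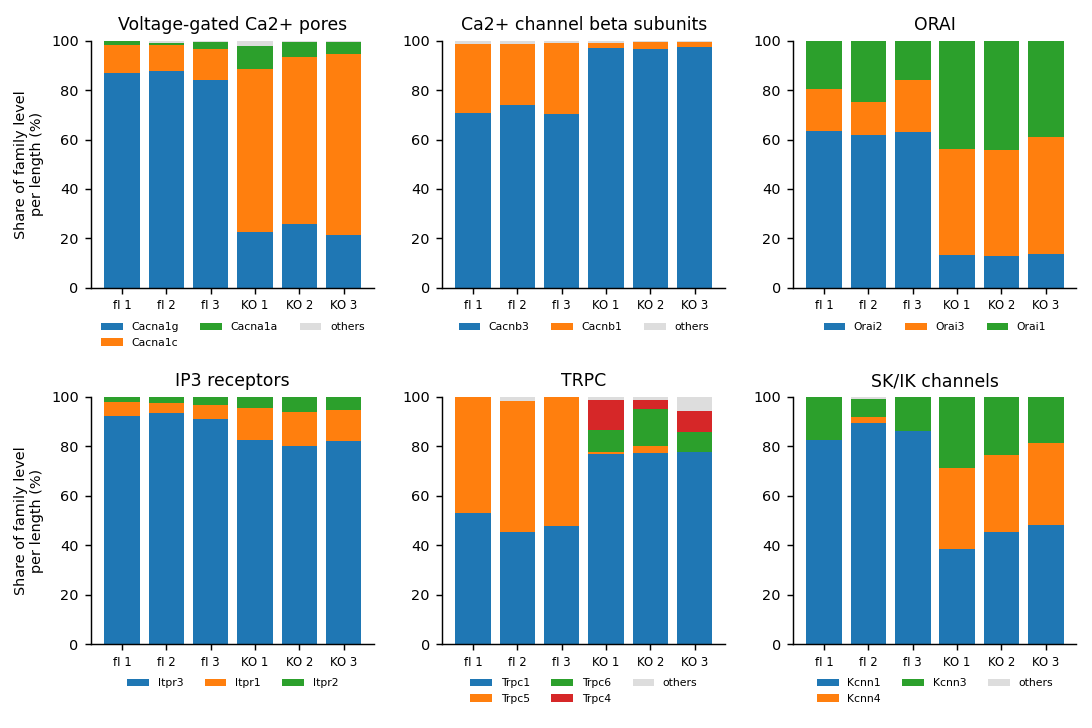
Stacked bars of each library's level per length of gene model within a family (vertical axis, percent of the family total), for the 3 Pdk4fl/fl libraries (fl) and the 3 Pdk4SMKO libraries (KO). Cacna1g leads the calcium pores in all Pdk4fl/fl libraries and Cacna1c in all Pdk4SMKO libraries, and Orai2 leads in all Pdk4fl/fl libraries, while in Pdk4SMKO libraries Orai1 and Orai3 lie close together (Orai1 ahead in replicates 1 and 2, Orai3 in replicate 3).

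The TRP channels are nonselective cation channels gated by lipids, heat, stretch or calcium. Trpm7, a channel with a kinase domain that carries magnesium and zinc, was by far the most abundant of them (MGP_C57BL6NJ_G0026866, chromosome 2, bases 134159298 to 134247115 in the C57BL/6NJ assembly). It stood at 467, 462 and 487 CPM in Pdk4fl/fl and 166, 165 and 192 CPM in Pdk4SMKO libraries. The libraries of a genotype lay close together and the groups far apart, with a log2 fold change of -1.44 (standard error 0.12, edgeR adjusted p = 1.62e-06). With scaling by library size alone it was -0.83 and under the limit. Trpm4, a calcium-activated channel for monovalent cations, rose from 5.21 ± 1.40 to 11.5 ± 1.03 CPM (log2 fold change 1.13, under the limit at 0.998 without Pdk4fl/fl replicate 1). Trpm7 was 96.9 ± 0.907% of the TRPM family per length in Pdk4fl/fl and 82.7 ± 2.66% in Pdk4SMKO libraries, and Trpm4 2.85 ± 0.790% and 14.6 ± 2.00%.

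Trpc5, a channel of the receptor-operated branch that can join Trpc1, fell to the floor. It had 70, 86 and 63 counts in Pdk4fl/fl and 1, 2 and 0 counts in Pdk4SMKO libraries, a ratio of 0.0101 (95% interval 0.00206 to 0.0298) (edgeR adjusted p = 1.76e-06). Intervals given with such ratios are exact and cover counting error alone. Trpc1 was at 7.32 ± 1.01 and 5.71 ± 2.05 CPM, overlapping (log2 fold change -0.35, edgeR adjusted p = 0.254). Trpc6, a diacylglycerol-gated channel known in arterial muscle, had 0 counts in all Pdk4fl/fl libraries and 8, 6 and 4 counts in the Pdk4SMKO libraries, at least 1.43-fold higher against a floor of 3 counts per library. Trpc4 likewise went from 0 in each to 29, 4 and 11 counts, at least 3.40-fold higher, with most of them in Pdk4SMKO replicate 1. Neither passed the filter.

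Among the vanilloid branch, Trpv4, a channel opened by stretch and warmth, was the main member and stood at 15.7, 16.4 and 14.1 CPM in Pdk4fl/fl and 21.6, 25.5 and 23.2 CPM in Pdk4SMKO libraries. The groups did not overlap, but the log2 fold change of 0.61 (standard error 0.15, edgeR adjusted p = 0.00316) was under the limit of 1. With scaling by library size alone it was 1.21 and was called. Trpv2 was at 0.381 ± 0.0703 and 0.663 ± 0.109 CPM and not called. Trpm5 and Trpm3 were called higher and Trpv3 lower, each under 2 CPM in every library, and Trpm5 overlaps Tssc4, with 1642 counts on the opposite strand. Trpc4ap, the adaptor taken in by its name, was at 337 ± 23.7 and 182 ± 6.59 CPM (log2 fold change -0.89, not called).

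The Piezo channels open when the membrane is stretched. Piezo1, the vascular form, was among the 10 most abundant genes and stood at 334, 317 and 176 CPM in Pdk4fl/fl and 350.5, 271 and 221 CPM in Pdk4SMKO libraries. Each genotype spanned a wide range and they overlapped (log2 fold change 0.03, standard error 0.24, edgeR adjusted p = 0.923). Piezo2, the form of touch-sensing nerves, had 22.4, 25.5 and 17.0 and 13.8, 4.63 and 4.32 CPM and was called lower (log2 fold change -1.50, standard error 0.40, edgeR adjusted p = 0.00563). Pdk4SMKO replicate 1 was near the Pdk4fl/fl libraries and the other two were well below.

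Potassium channels that answer to calcium were low in both genotypes, and 3 of the 4 tested were higher in Pdk4SMKO cells. Kcnt2, a sodium-activated channel of the same class, was tested and not called (log2 fold change -0.37). Kcnma1, the pore of the large-conductance BK channel that opposes arterial constriction, had 1, 0 and 0 counts in Pdk4fl/fl and 24, 55 and 36 counts in Pdk4SMKO libraries (MGP_C57BL6NJ_G0021445, chromosome 14, bases 16712897 to 17459024 in the C57BL/6NJ assembly). The ratio of CPM was 84.4 (95% interval 14.9 to 3363), and the gene was called higher (edgeR adjusted p = 7.94e-05), although its mean of 1.85 ± 0.845 CPM in Pdk4SMKO libraries was still low. Kcnmb1, its smooth muscle beta subunit, had 0, 0 and 0 and 3, 0 and 0 counts, while Kcnmb4, the neuronal beta subunit, had 17, 17 and 4 counts in Pdk4fl/fl and 0 in every Pdk4SMKO library, at least 5.53-fold lower against the floor. Kcnn4, the intermediate-conductance channel known from proliferating smooth muscle and immune cells, had 0, 2 and 0 and 87, 47 and 61 counts, a ratio of 71.6 (95% interval 19.5 to 595) (edgeR adjusted p = 1.75e-05).

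Kcnn3, a small-conductance channel, rose from 1.67, 0.714 and 0.984 CPM to 6.81, 3.58 and 3.43 CPM (log2 fold change 2.05, edgeR adjusted p = 0.00111), and Kcnn1, of the same family, was at 2.92 ± 0.517 and 3.23 ± 0.470 CPM, overlapping. The share of Kcnn1 in the family per length went from 86.0 ± 3.43% to 44.0 ± 4.91%, with Kcnn4 at 32.4 ± 1.04% in Pdk4SMKO libraries. Of the macrophage markers, 6 of 7 tested were higher in Pdk4SMKO libraries and Cd68 was lower, and Kcnn4 is known in macrophages. In the Pdk4SMKO libraries Kcnn4 had 87, 47 and 61 counts and C1qb had 170, 69 and 42. Cd14, the most abundant of these markers there, ran in the other order, with 736, 1016 and 1103 counts. The part of such cells was not tested.

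Inward rectifiers pass current more easily into the cell and set its resting voltage. Kcnj4 fell and Kcnj15 and Kcnj2 rose. Kcnj4 had 10.9, 13.9 and 8.48 CPM in Pdk4fl/fl and 4.96, 3.43 and 1.82 CPM in Pdk4SMKO libraries (log2 fold change -1.70, standard error 0.34, edgeR adjusted p = 0.00101). Kcnj15, a channel of epithelia, went from 0.133, 0.329 and 0.454 to 14.3, 18.4 and 18.1 CPM, a log2 fold change of 5.77 (standard error 0.32, edgeR adjusted p = 1.36e-07). Its 3 Pdk4SMKO libraries lay close together, while those of Kcnj4 spread widely. Kcnj2, the classical strong rectifier of small arteries, had 0, 1 and 0 counts against 50, 47 and 48 counts, a ratio of 106 (95% interval 18.8 to 4232) (edgeR adjusted p = 9.25e-06). Within the family per length, Kcnj4 went from 92.0 ± 2.49% to 32.4 ± 13.0% and Kcnj15 from 0.912 ± 0.652% to 55.3 ± 10.9%.

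The ATP-sensitive channel links potassium flow to metabolism and pairs a pore, Kcnj8 or Kcnj11, with a sulfonylurea receptor. Kcnj8, the vascular pore, had 0, 3 and 1 counts in Pdk4fl/fl and 0, 9 and 4 counts in Pdk4SMKO libraries. Kcnj11 had 2, 9 and 2 counts and then 0 in every Pdk4SMKO library, at least 1.82-fold lower against the floor. Neither passed the filter, so no test was made. Abcc9, the vascular sulfonylurea receptor, is outside the name rule but was tested, and went from 2.53, 2.64 and 0.832 to 0.0439, 0.348 and 0.147 CPM (log2 fold change -3.48, standard error 0.66, edgeR adjusted p = 0.00071).

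Voltage-gated potassium pores were numerous but scarce: 9 of 39 were tested, and their family total was 4.05 ± 0.332 CPM per kilobase in Pdk4fl/fl and 7.63 ± 1.48 in Pdk4SMKO libraries. Among the 4 lower pores, Kcna4, an A-type pore, fell from 39, 28 and 17 to 2, 0 and 1 counts (log2 fold change -5.07, edgeR adjusted p = 5.14e-05). Kcng3, a silent subunit that makes channels only together with a pore of another family, fell from 37, 33 and 23 to 1, 0 and 0 counts (edgeR adjusted p = 1.07e-05). Both were near the floor in every Pdk4SMKO library.

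The 3 higher pores were led by Kcnf1, another silent subunit of the same kind. Kcnf1 had 2.33, 2.69 and 1.51 CPM in Pdk4fl/fl and 11.2, 28.1 and 27.1 CPM in Pdk4SMKO libraries, with Pdk4SMKO replicate 1 well under the other two (log2 fold change 3.32, standard error 0.38, edgeR adjusted p = 1.80e-05). Kcnd1, an A-type pore, rose from 1.08 ± 0.273 to 6.12 ± 1.32 CPM (log2 fold change 2.51). Kcnh7 had 0, 6 and 0 and 32, 24 and 26 counts and overlaps Gca, with 590 counts on the opposite strand. Kcnd3 was not called, at 0.800, 1.10 and 0.378 and 0.220, 1.29 and 0.687 CPM. The arterial pores Kcna5 and Kcna2 and the M-type genes Kcnq1 and Kcnq5 stayed under the filter, with Kcna2 at 0 in every library and Kcna5 at 0, 0 and 0 and 1, 0 and 4 counts. Kcnq5 had 0 counts in each Pdk4fl/fl library and 11, 3 and 5 in the Pdk4SMKO libraries, at least 1.48-fold higher against the floor.

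Auxiliary potassium subunits tune these pores. Kcne4, a partner of several voltage-gated pores, had 0 counts in every Pdk4fl/fl library and 59, 114 and 79 counts in the Pdk4SMKO libraries, at least 20.5-fold higher against a floor of 3 counts per library (edgeR adjusted p = 2.50e-05). Kcnab1, a cytosolic beta subunit, rose from 2.00, 1.54 and 1.59 to 21.3, 11.0 and 11.9 CPM (log2 fold change 3.11, standard error 0.31). Pdk4SMKO replicate 1 was again apart, here above the others. Kcnip1, a calcium-binding partner of A-type pores, had 19, 32 and 30 and 1, 4 and 0 counts (log2 fold change -4.36, edgeR adjusted p = 0.000184). Kcnrg was called lower and Kcnip4 higher at under 2 CPM, but they lie across Dleu2 (7423 counts) and 5730480H06Rik (843 counts) on the opposite strand, so these calls are uncertain.

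K2P channels carry the background potassium leak. Kcnk2, opened by stretch and lipids, was not called over all libraries, at 2.60, 1.87 and 2.35 CPM in Pdk4fl/fl and 2.90, 0.796 and 0.834 CPM in Pdk4SMKO libraries. Its value rested on Pdk4SMKO replicate 1, since without that library the log2 fold change was -1.45 (edgeR adjusted p = 0.00569) in place of -0.57. Kcnk5, which is sensitive to pH, had 0, 3 and 0 and 42, 44 and 34 counts, a ratio of 29.4 (95% interval 9.81 to 144) (edgeR adjusted p = 0.000118). Kcnk6 was called higher from 1, 5 and 2 to 15, 10 and 14 counts (edgeR adjusted p = 0.0126), a call that was lost without Pdk4fl/fl replicate 1 at an adjusted p of 0.0555. Kcnk3, known in pulmonary arterial muscle, had 0, 5 and 0 and 4, 49 and 17 counts and was not tested, and its groups overlapped, with most counts in Pdk4SMKO replicate 2.

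Every tested anoctamin was higher. Ano1, the calcium-activated chloride channel that depolarizes vascular muscle, stood at 19.8, 13.7 and 14.3 CPM in Pdk4fl/fl and 94.8, 67.3 and 81.1 CPM in Pdk4SMKO libraries. The groups were far apart, with a log2 fold change of 2.35 (standard error 0.19, edgeR adjusted p = 1.39e-06). Ano6, a scramblase that moves lipids across the plasma membrane, was the most abundant of the family and had 224, 193 and 161 and 405, 458 and 466 CPM (log2 fold change 1.20, standard error 0.14, edgeR adjusted p = 2.65e-05). Ano10 rose from 17.0 ± 2.34 to 67.9 ± 1.19 CPM and Ano8, a tether between the reticulum and the plasma membrane, from 24.7 ± 2.35 to 55.4 ± 4.83 CPM, although Ano8 overlaps Dda1 with 6801 counts on the opposite strand.

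Ano3 had the largest ratio among the tested anoctamins (MGP_C57BL6NJ_G0026669, chromosome 2, bases 116700166 to 117035566 in the C57BL/6NJ assembly). It had 1, 1 and 0 counts in the Pdk4fl/fl libraries and 684, 395 and 513 counts in the Pdk4SMKO libraries, a ratio of 584 (95% interval 161 to 4829) (edgeR adjusted p = 4.28e-08). In Pdk4fl/fl cells it was at the floor, and in Pdk4SMKO cells it reached 25.0 ± 5.19 CPM. The family total rose from 49.9 ± 5.82 to 138 ± 2.33 CPM per kilobase, in which the share of Ano6 was 67.5 ± 3.40% in Pdk4fl/fl and 56.5 ± 3.72% in Pdk4SMKO libraries and that of Ano1 6.10 ± 0.762% and 11.3 ± 1.96%.

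Voltage-gated sodium channels drive action potentials in nerve and striated muscle and are scarce in arterial muscle. Scn7a, a sodium sensor of glia, had 0 counts in every Pdk4fl/fl library and 28, 54 and 72 counts in the Pdk4SMKO libraries, at least 12.6-fold higher against the floor (edgeR adjusted p = 0.000119). Scn2a1, a neuronal pore, rose from 1.45 ± 0.300 to 6.30 ± 0.208 CPM. Of the Schwann cell markers, S100b rose beside these genes, from 6, 0 and 0 to 48, 42 and 60 counts, while Sox10 had 0, 0 and 3 and 7, 4 and 1 counts. No row is named Scn3a, and the row whose description names it had at most 2 counts in a library.

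The genes under the filter were counted but not compared by a test. Of these 111 genes, 31 had no count in any library, 34 had counts in Pdk4SMKO libraries alone, 8 in Pdk4fl/fl libraries alone and 38 in both, with at most 78 counts over a genotype. The highest was Scn3b, a beta subunit, with 0 counts in each Pdk4fl/fl library and 54, 9 and 15 counts in the Pdk4SMKO libraries. A count of 0 in 3 libraries at this depth does not show that a gene is silent. Of the 5 members on chromosome X, 2 were tested, Trpc5 and Kcnd1, of which Trpc5 was lower and Kcnd1 higher.

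Genes that work beside the channels, from 3 lists chosen with earlier results known, moved in both directions. Of 18 tested genes of calcium exchange, buffering and uptake, 5 were higher and 4 lower. That is 50% called, against 59.3% of all genes tested. Their median log2 fold change was -0.05, against 0.12 over all genes tested. Slc8a1, the sodium-calcium exchanger of the plasma membrane, had 1, 0 and 0 counts in Pdk4fl/fl and 264, 403 and 400 counts in Pdk4SMKO libraries, a ratio of 783 (95% interval 140.3 to 30962) (edgeR adjusted p = 2.02e-07). Jph2, a junctophilin that ties the reticulum to the plasma membrane, went from 13.5, 9.72 and 10.1 to 159, 129 and 87.4 CPM (log2 fold change 3.49, standard error 0.24). Saraf, which switches off store-operated entry, went from 428, 480.2 and 434 to 135, 134 and 126 CPM (log2 fold change -1.77, standard error 0.11). At the mitochondrial uniporter, the pore gene Mcu was higher (log2 fold change 1.24) and its gatekeeper Micu3 was lower (-2.42). Calr, the main calcium buffer of the reticulum, fell from 2336 ± 15.2 to 1027 ± 186 CPM.

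Of 24 calcium sensors and contraction effectors, all tested, 9 were higher and 3 lower (50% called, against 59.3% of all genes tested). Camk2d, the main CaM kinase II gene of vascular muscle, fell from 343, 347 and 340.0 to 88.7, 91.1 and 86.4 CPM, and Camk2a and Camk2b rose at low level (log2 fold changes -1.95, 2.65 and 2.65). Nfatc4, a transcription factor that calcineurin releases to the nucleus, went from 0.800, 0.879 and 0.984 to 67.9, 92.2 and 71.0 CPM (log2 fold change 6.43, standard error 0.21, edgeR adjusted p = 1.15e-08). Mylk, the kinase that starts contraction when calmodulin binds it, rose from 2.53 ± 0.581 to 9.89 ± 2.35 CPM. Of 23 tested channel partners and channels outside the name rule, 11 were higher and 6 lower (73.9% called, against the same 59.3%). Pkd1 and Pkd2, the polycystins, were higher (log2 fold changes 1.83 and 1.66), as was Tpcn1, an endolysosomal channel (1.93). Cav1, the scaffold of caveolae, Nalcn, the sodium leak channel, and P2rx7, an ATP-gated channel, were lower (-1.45, -2.21 and -1.90). The rows of Mcub, Cavin1 and Lrrc8a were not found by name.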

How the data were processed

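RNA of Ang II-treated MASMCs was sequenced as paired-end reads in 6 libraries, 3 for each genotype named in the labels. The authors deposited raw counts, not normalized, as whole numbers for each gene and library. Aligner, counting program and use of strand are not given in the sources used here. The submitters' processing notes name GRCm39, while the identifiers and coordinates are of Ensembl's C57BL/6NJ assembly, so coordinates are given as the table holds them. The methods name a NEBNext Ultra kit and the labels a SMARTER kit.

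Counts were filtered with filterByExpr, scaled by TMM and tested on genotype in R 4.3.3 with edgeR 4.0.16 (quasi-likelihood, Benjamini-Hochberg over all 14085 genes tested). Calls needed an adjusted p below 0.05 together with a fold change of 2 or more. The standard error of a log2 fold change is its size divided by the square root of the F statistic. Gene models of different length were compared as CPM per kilobase. The floor of 3 counts and the 95% intervals of ratios cover counting error alone. Alternatives used RLE, upper-quartile or library-size scaling, DESeq2 1.42.0, other filters and thresholds, a fit of protein-coding genes, a replicate block, and each library left out. Scripts were tested on simulated counts in which few genes changed, evenly in both directions. That simulation cannot show how TMM scaling behaves in a table where most genes differ.

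The members and lists were chosen with earlier results of these data known. Named members are a list of vascular channels, the called extremes of each class at 1 CPM or more and the 10 most abundant. Other members named were chosen after their values were seen, as were the family shares. Same-numbered libraries had correlations of deviations of 0.040, 0.060 and 0.176. These values alone do not decide whether the numbers pair libraries, and the labels do not say. The windows ahead of gene starts came from RefSeq, where 140 of 183 members matched by symbol. Of the rows, 11312 have no gene name, and 7 of those carry a name of these families in their description (3 protein coding). Some members and marker genes are counted in the totals but not reported here by name.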

Additional observations from a re-analysis of the deposited data

How the results depend on the processing

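The count of 18 lower and 37 higher members stayed at 15 to 22 and 35 to 53 under the other scalings, DESeq2, no filter, protein-coding genes alone, an unadjusted p and no limit on the fold change. Requiring at least 10 counts in every library left 42 members tested, with 8 lower and 20 higher, and a fold change of at least 4 left 12 lower and 22 higher. Each library left out gave 18 to 20 lower and 37 to 41 higher members, and the replicate block gave 18 and 37, with all 55 calls shared. Scaling by library size alone moved the median log2 fold change of all genes from 0.12 to 0.72 and their split from 3733 lower and 4616 higher to 2390 and 6184 (72.1% higher in place of 55.3%). Members were then 15 lower and 39 higher. There Orai2, Trpm7 (-0.83) and Piezo2 (-0.89) lost their call and Trpv2 (1.37) and Trpv4 (1.21) gained one. Atp2a2 lost its call in 5 alternatives (0.90 to 0.98), Kcnk6 with DESeq2 and without Pdk4fl/fl replicate 1, and Trpm4 without the same library. All 38 named genes that were called kept their direction in each of the 14 alternative fits that tested them, and 32 kept their call. Reversals of sign were confined to 8 genes that were not called. With RLE scaling Stim1 was at -0.028 and Piezo1 at -0.00733, with DESeq2 at -0.0284 and -0.00716, and with protein-coding genes alone Stim1 was at -0.0238. With upper-quartile scaling Kcnd3 was at 0.11, and with library size alone Kcnd3 was at 0.49, Kcnk2 at 0.0417, Trpc1 at 0.25, Atp2b1 at 0.10 and Stim2 at 0.33. With single libraries left out, Kcnd3 ranged from -0.77 to 0.35, Stim1 from -0.0819 to 0.0821, Piezo1 from -0.23 to 0.18 and Cacna2d1 from -0.23 to 0.26. The causes were not tested. Family shares, added after the values were seen, kept their direction with each library left out. Members under about 10 counts per library are limited by depth.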
